A study of Rattus norvegicus with 6 samples.

Results

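The serpins are a family of serine protease inhibitors, and the genes described here are those for which the array annotation gives 1 probe set a single symbol beginning with Serpin. There were 36 such genes among 14324 named by a single symbol, each with 1 of the 27342 probe sets on the array, and their Entrez numbers linked all 36 to RefSeq genes (GRCr8 assembly). They were measured in 3 pools of rat ovaries cultured for 24 h with human connective tissue growth factor (CTGF) at 500 ng/ml and in 3 pools of control ovaries cultured for 24 h with no treatment. All ovaries came from 0-day-old female Sprague-Dawley rats, and a pool held 2 to 3 whole ovaries of pups from 1 litter that had shared a culture well. Each of 3 organ culture date batches gave 1 CTGF and 1 control pool. CTGF is a secreted matrix-associated protein of the CCN family, and the study used these cultures to examine its effect on transcripts while oocyte nests break down into primordial follicles.

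A typical serpin presents a flexible reactive centre loop to its target protease. The protease cuts the loop and is then trapped in a covalent complex with the folded inhibitor, so that each serpin molecule acts once. The family is divided into clades that carry the letters of the gene symbols. Clade B serpins lack a classical secretion signal and mostly work inside cells, while most other clades are secreted, many of them by the liver into plasma. Some members have lost the inhibitory action and carry hormones, chaperone collagen or act as secreted signals. In the ovary, plasminogen activators and their inhibitors are known for their part in ovulation, and SERPINE2 is known as a product of granulosa cells.

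The values are log2 signals as the authors deposited them, summarized per probe set with the RMA method. The CTGF and control array of a batch had, in any probe set, a mean that hardly varied between the 3 batches (by at most 0.005), so differences between culture dates are no longer in the values and the 2 arrays of a batch mirror each other. The array medians lay between 5.82 and 5.84. A level of background was taken from 44 genes (45 probe sets) that mark retina, lens, pancreas, lung and other organs, called silent tissue genes here. Their median log2 signal was 4.50 and their 95th percentile 5.65. Above this percentile lay all 5 measured germ cell markers, 3 of 4 pregranulosa cell markers and all 4 stroma markers. Of 2 measured endothelium markers 0 lay above it, of 2 smooth muscle markers 1 and of 3 mast cell markers 1. A signal below this percentile, called at background here, thus does not show that a gene is silent in the ovary. Of the 11 measured hepatocyte markers 2 lay above it, Rbp4 at 5.96 and Hpx at 5.67, and albumin (Alb) was at 4.47. In pooled whole ovaries, fewer cells of a type and less RNA per cell cannot be told apart. Signals of different probe sets also depend on how well their probes bind, so each level is read here against the silent tissue genes and not as a ranking of transcripts.

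Of the 36 serpin genes, 9 (25%) lay above the silent tissue level, against 52.2% of all probe sets. The 9 were Serping1, Serpinh1, Serpinb6a, Serpinb9, Serpinb1a, Serpine2, Serpina9, Serpini1 and Serpinf1, with mean log2 signals of the 6 arrays between 6.75 and 9.64. The other 27 lay between 3.86 and 5.11, with a median of 4.32, and 23 of them did not exceed the silent tissue median. No serpin gene lay between 5.11 and 6.75, where the silent tissue level falls.

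**Figure D1:**
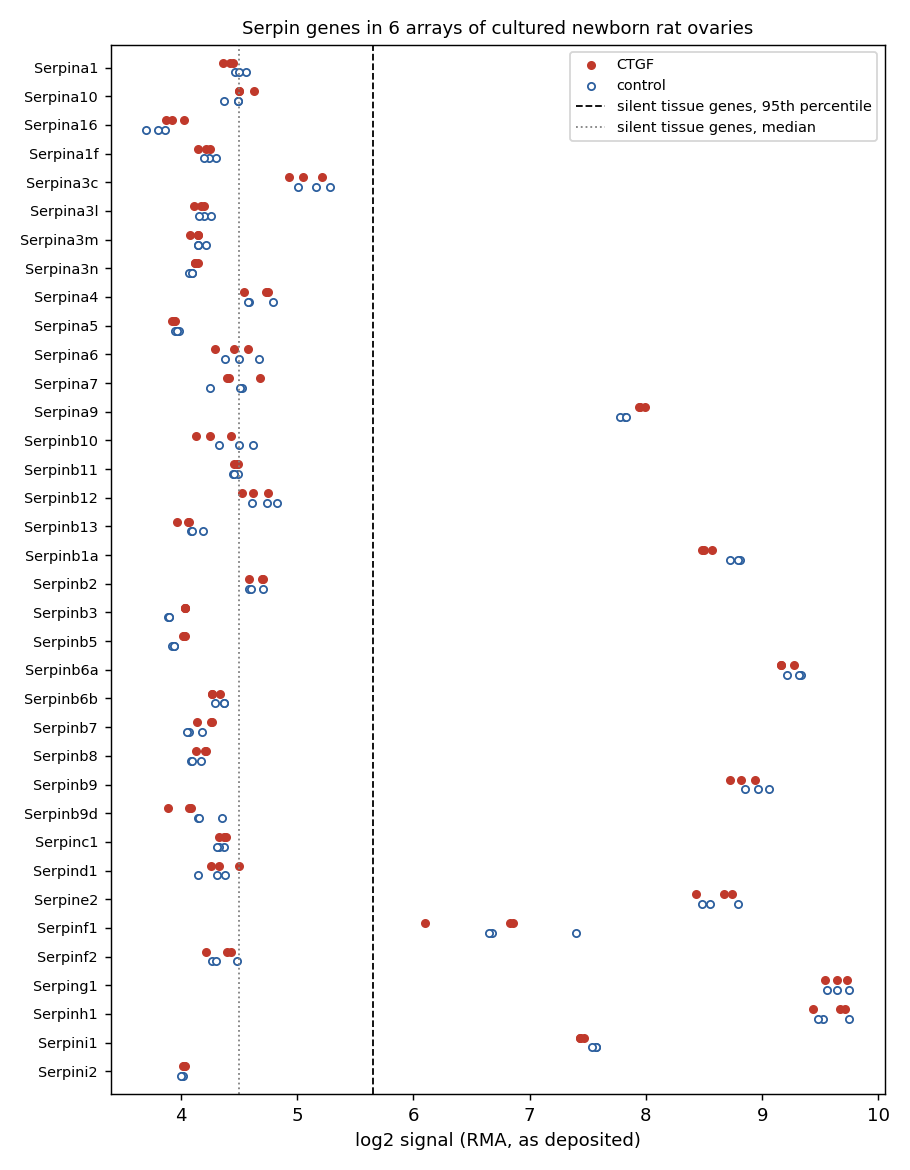
Deposited log2 signal (horizontal axis) of each of the 36 serpin genes (vertical axis, by clade) in 3 CTGF arrays (filled red points) and 3 control arrays (open blue points), and silent tissue genes at their median (dotted line) and 95th percentile (dashed line). The points of 9 genes lie right of the dashed line, and the other 27 genes lie left of it.

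Many genes of serpins that circulate in plasma were at background, while Serping1, the C1 inhibitor, which also circulates there, was above it. Serpina1, the antitrypsin that protects tissue from neutrophil elastase, had a mean log2 signal of 4.46, Serpinc1, antithrombin, 4.35 and Serpind1, heparin cofactor II, 4.32. Serpinf2, the plasmin inhibitor antiplasmin, was at 4.35. The hormone carriers Serpina6, which binds corticosteroids, and Serpina7, which binds thyroxine, were at 4.48 and 4.46. Among clade A, 1 of 13 genes lay above the silent tissue level, Serpina9. The highest of the other 12 was Serpina3c, of the antichymotrypsin group that is expanded in rodents, with 5.21, 5.05 and 4.93 in the CTGF arrays and 5.01, 5.16 and 5.28 in the control arrays of batches 1, 2 and 3. Serpina4, the kallikrein-binding kallistatin, had 4.73, 4.54 and 4.75 in the CTGF arrays and 4.59, 4.79 and 4.58 in the control arrays. In both genes the arrays of the 2 groups overlapped. The clade A genes Serpina3l, Serpina3m, Serpina3n, Serpina1f, Serpina5, Serpina10 and Serpina16 were between 3.86 and 4.50.

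The 14 clade B genes lie in 2 gene clusters in the RefSeq annotation, and 3 of them were above the silent tissue level. Of 5 measured members of the cluster that holds Serpinb6a, Serpinb9 and Serpinb1a, these 3 lay above the silent tissue level, while Serpinb6b was at 4.32 and Serpinb9d at 4.12. Of the 9 measured members of the other cluster 0 did, with mean log2 signals from 3.97 to 4.68. These were Serpinb2, an inhibitor of urokinase, Serpinb5, known as maspin, Serpinb3, Serpinb7, Serpinb8, Serpinb10, Serpinb11, Serpinb12 and Serpinb13. Serpinb12, the highest of them, had 4.62, 4.53 and 4.75 in the CTGF arrays and 4.74, 4.83 and 4.61 in the control arrays, and the groups overlapped. The signal of close paralogs can hold cross-hybridization, since the serpin clusters arose by duplication, and this was not tested. Of the 2 clade I genes Serpini1 lay above the level, and Serpini2 was at 4.02. RefSeq lists 49 protein-coding genes with a Serpin symbol, and 13 of them have no probe set with that single symbol and were not analysed here.

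The comparison of CTGF with control asks which transcripts had responded after 24 h. It was made in limma, blocking on culture batch, and p-values were adjusted by Benjamini-Hochberg across the 27342 probe sets. At an adjusted p under 0.05, 0 of the 36 serpin genes passed, against 0% of all probe sets (the lowest adjusted p was 0.994). Before adjustment, 1 of 36 serpin genes, or 2.78%, had a p under 0.05, against 3.35% of all probe sets. It was Serpinb1a, on the lower side, where 1.89% of all probe sets lay. On the higher side there were 0 serpin genes, against 1.45% of all probe sets. At the criteria of the study's methods, a ratio of un-logged means over 1.2 or under 0.83, a difference over 10 and an unadjusted p under 0.05, there were 0 serpin genes, against 0.435% of all probe sets. These shares rest on 0 or 1 serpin gene, too few to set them apart from the array or to show a match. The share at an unadjusted p under 0.05 moved between settings, as given at the end. Of the 36 log2 differences, taken as CTGF minus control, 17 were above 0, 18 below 0 and 1 at 0, with a median of -0.007 beside -0.003 for all probe sets. Among the 9 genes above the silent tissue level 3 were above and 6 below 0, and their median was 0.09, 0 and -0.29 in batches 1, 2 and 3.

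**Figure D2:**
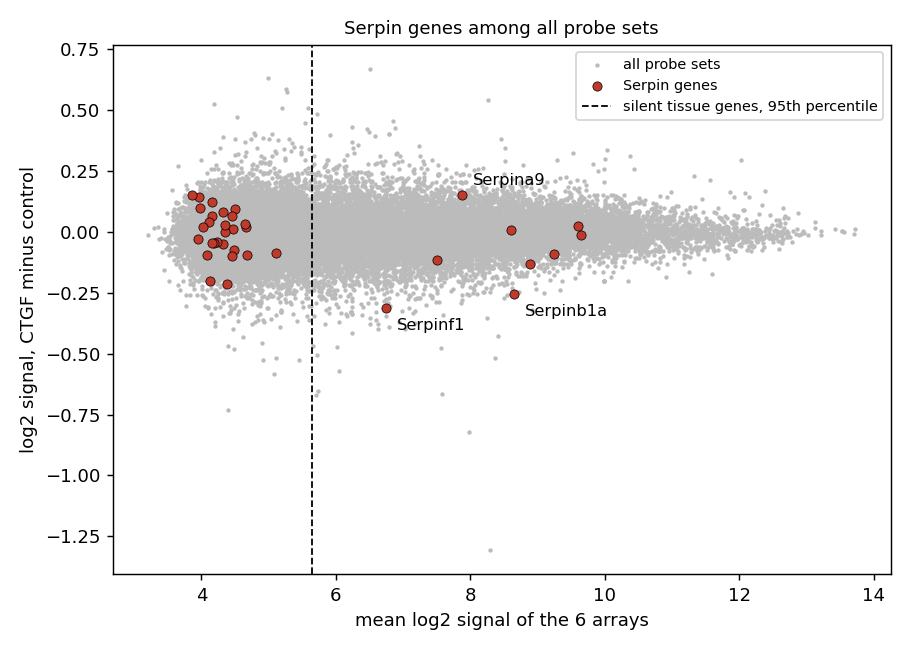
All 27342 probe sets (grey points) and the 36 serpin genes (red points) by mean log2 signal over 6 arrays (horizontal axis) and by log2 difference of CTGF minus control, averaged over batches (vertical axis); the dashed line is the 95th percentile of silent tissue genes. Serpinf1 at -0.31 and Serpinb1a at -0.26 have the lowest differences of the serpin genes, and most serpin genes lie left of the dashed line.

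Serpinb1a belongs to the group of human SERPINB1, an intracellular inhibitor of the neutrophil proteases elastase, cathepsin G and proteinase 3. Its log2 signal was 8.57, 8.48 and 8.50 in the CTGF arrays of batches 1, 2 and 3, and 8.72, 8.81 and 8.79 in the control arrays. All 3 CTGF arrays were below all 3 control arrays. Un-logged, the signal was 366.4 ± 12.1 with CTGF and 437.7 ± 14.2 in control ovaries (SD, n = 3 each), a ratio of 0.837. These SDs leave out differences between culture dates, which are no longer in the values, and the 2 groups mirror each other. This ratio of CTGF over control is just outside the limit of 0.83, which the study's methods state for control over treatment. Some genes in the study's published list also lie outside that limit, and Serpinb1a is not in the list. The log2 difference was -0.26 with a standard error of 0.07 and a 95% interval from -0.43 to -0.09, with -0.15, -0.33 and -0.29 in the 3 batches. The unadjusted p in limma was 0.00952 and the adjusted p = 0.994. Without batch 2 or batch 3 the unadjusted p was 0.0653 and 0.0596.

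The bases before the start of Serpinb1a are shown because it had the smallest p of the serpin genes. The sequence is from RefSeq, build GRCr8, and covers 250 bases up to the annotated start (chr17:31799196-31799445, plus strand). Motifs were searched on both strands, and the capitals mark a TATA box (TATAAA).
Serpinb1a: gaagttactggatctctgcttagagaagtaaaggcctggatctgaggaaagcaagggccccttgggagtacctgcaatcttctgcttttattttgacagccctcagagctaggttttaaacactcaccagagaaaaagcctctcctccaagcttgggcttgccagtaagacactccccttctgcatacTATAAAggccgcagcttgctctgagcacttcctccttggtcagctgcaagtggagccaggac
In windows of this length before 27457 rat genes, TATAAA was present in 13.1%. Of the 8 genes above the silent tissue level with such a window Serpinb1a alone held it. The match is a description of the letters only.

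Serpinb6a, whose human counterpart inhibits cathepsin G, had log2 signals of 9.27, 9.16 and 9.16 in the CTGF arrays and 9.21, 9.33 and 9.32 in the control arrays. Batches 2 and 3 had the lower value with CTGF and batch 1 the higher, so that the groups overlapped. Its log2 difference was -0.09 (standard error 0.08, 95% interval from -0.27 to 0.09). Serpinb9, the inhibitor of granzyme B that protects cells from their own or incoming granzyme, had 8.94, 8.82 and 8.72 in the CTGF arrays and 8.85, 8.96 and 9.06 in the control arrays. Here too batch 1 differed in sign from batches 2 and 3, at 0.09 against -0.14 and -0.34. The mean log2 difference was -0.13 (standard error 0.09, 95% interval from -0.36 to 0.10). Neither gene passed in limma (adjusted p = 0.994).

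The proteases that these 3 serpins are known to inhibit were looked at beside them. Elane, Ctsg and Prtn3, the elastase, cathepsin G and proteinase 3 genes, were at background, with mean log2 signals of 4.50, 4.12 and 4.10. Gzmb, granzyme B, was above it, with 7.67, 7.51 and 7.67 in the CTGF arrays and 7.71, 7.87 and 7.72 in the control arrays. All 3 CTGF arrays were below the 3 control arrays, at a log2 difference of -0.15 (standard error 0.09) that did not pass (adjusted p = 0.994, limma). Of all probe sets, 20.3% had groups that did not overlap.

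Markers of mast cells, which store serine proteases in their granules, had lower values with CTGF in the same comparison. The log2 differences in batches 1, 2 and 3 were -0.14, -0.80 and -1.52 for the carboxypeptidase Cpa3, -0.04, -1.02 and -0.52 for the chymase Cma1, and -0.02, -0.44 and -0.48 for the tryptase Tpsab1. All 3 of 3 measured markers were at an unadjusted p under 0.05, against 3.35% of all probe sets and 1.89% on the lower side. These markers were listed with earlier results of these data known, so this count is a description and not a test. After adjustment 0 passed (adjusted p = 0.994, limma). As markers of 1 cell type, the 3 genes are not independent of each other. Their summed un-logged signal was 212.5 to 315.2 in CTGF arrays and 341.4 to 517.4 in control arrays. Cma1 and Tpsab1 lay below the silent tissue level, and Cpa3 above it. Batch 1 had the smallest differences for these markers and for Serpinb1a. The part of mast cells in the values of the clade B serpins was not tested. Leukocyte markers had a median log2 difference of -0.002.

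**Figure D3:**
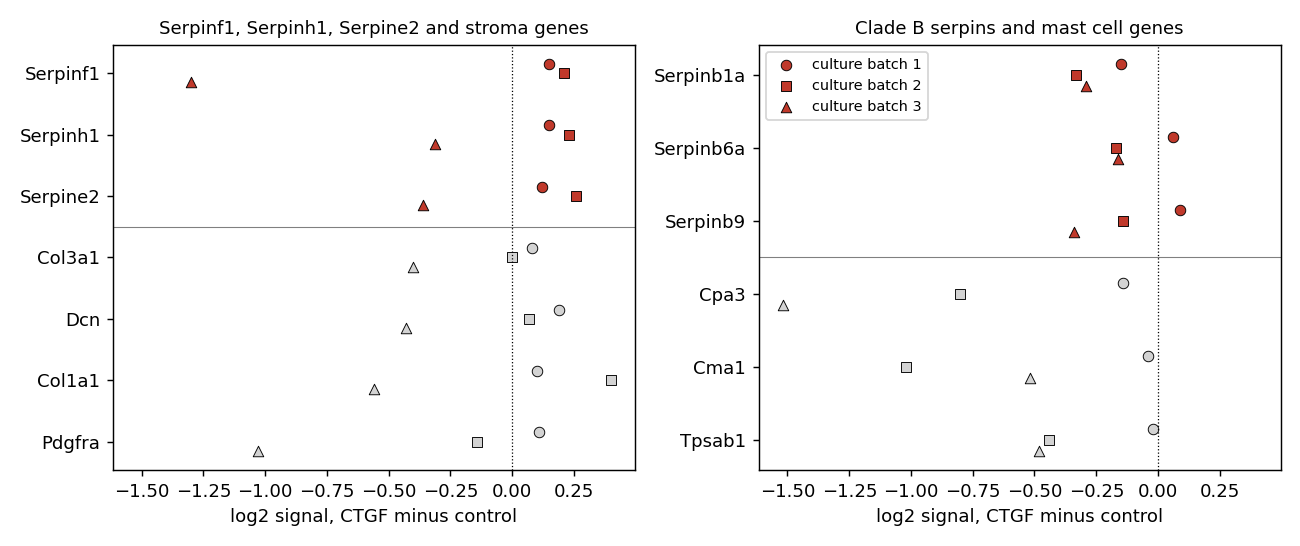
Log2 difference between the CTGF and control array (horizontal axis), drawn as circles for culture batch 1, squares for batch 2 and triangles for batch 3, for Serpinf1, Serpinh1 and Serpine2 with 4 stroma genes (left) and for the clade B serpins Serpinb1a, Serpinb6a and Serpinb9 with 3 mast cell genes (right); serpins are red and other genes grey. In the left panel every triangle lies below 0 and every circle above it, and in the right panel the circles of Serpinb6a and Serpinb9 alone lie above 0.

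Serpinf1 and Serpine2 act outside the cell, and Serpinh1 acts on procollagen inside it. The differences of these 3 genes between CTGF and control arrays changed sign with the culture batch. Serpinf1 encodes pigment epithelium-derived factor, a secreted serpin that inhibits no protease and is known for its action against blood vessel growth. Its log2 signal was 6.83, 6.86 and 6.10 in the CTGF arrays and 6.68, 6.65 and 7.40 in the control arrays of batches 1, 2 and 3. Batch 3 held both the lowest and the highest of these 6 values. This follows from the size of its difference, since the 2 arrays of a batch mirror each other. The log2 differences were 0.15, 0.21 and -1.30, with a mean of -0.31 (standard error 0.29, 95% interval from -1.01 to 0.38). Without batch 3 the mean was 0.18. Of all probe sets 13 of 27342, or 0.0475%, had a difference in batch 3 as far below 0 as Serpinf1.

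Serpinh1 encodes HSP47, the chaperone that holds procollagen in the endoplasmic reticulum. It had log2 signals of 9.67, 9.71 and 9.44 in the CTGF arrays and 9.52, 9.48 and 9.75 in the control arrays. The differences were 0.15, 0.23 and -0.31, with a mean of 0.02 (standard error 0.11, 95% interval from -0.25 to 0.30). Serpine2 encodes protease nexin, which inhibits thrombin, urokinase and tissue plasminogen activator at cell surfaces. It had 8.67, 8.74 and 8.43 in the CTGF arrays and 8.55, 8.48 and 8.79 in the control arrays, with differences of 0.12, 0.26 and -0.36 and a mean of 0.01 (standard error 0.12, 95% interval from -0.29 to 0.31). In both genes batch 3 had the lowest CTGF and the highest control value. Given the mirrored arrays, this only restates that batch 3 had the lowest difference. The intervals leave room for changes of either sign.

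These 3 genes were among 4 serpin genes that were higher with CTGF in batches 1 and 2 and lower in batch 3, an order that 13.1% of all probe sets had. This order was singled out after the values were seen. Of 4 stroma markers, Col1a1 and Dcn had this order and the others did not. In batches 1, 2 and 3 the log2 differences were 0.10, 0.40 and -0.56 for Col1a1, 0.19, 0.07 and -0.43 for decorin (Dcn), 0.08, 0.00 and -0.40 for Col3a1, and 0.11, -0.14 and -1.03 for Pdgfra. All 4 of 4 were below 0 in batch 3. Their summed un-logged signal was 3628 to 4498 in CTGF arrays and 4125 to 5125 in control arrays, and the ranges overlapped. Markers of other cells shared the order too. Of 3 markers of the surface epithelium, Krt8 had 0.21, 0.19 and -0.18 and Msln 0.40, 0.25 and -0.30, while Krt19 had -0.15, 0.01 and 0.07. Of 2 smooth muscle markers, Des had 0.11, 0.08 and -0.61 and Myh11 0.39, 0.04 and 0.03. The order was thus found in markers of several cell types. The summed signal of the surface epithelium markers was 3300 to 3442 in CTGF arrays and 3339 to 3489 in control arrays, and that of the smooth muscle markers 139.6 to 172.2 in CTGF arrays and 151.1 to 187.9 in control arrays. The part of these cells in the 3 serpins was not tested. Over all probe sets the SD of the log2 differences was 0.161, 0.160 and 0.183 in the 3 batches.

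The bases before the starts of these 3 genes are shown to set the members above background with one order across the batches side by side. They are from RefSeq, build GRCr8, with 250 bases up to the annotated start of Serpinh1 (chr1:163062977-163063226, minus strand), Serpinf1 (chr10:60760899-60761148, minus strand) and Serpine2 (chr9:88637203-88637452, minus strand). Capitals mark the GC box GGGCGG, the heat shock element (TTC, GAA and TTC in this order, each 2 bases apart) and the SMAD motif CAGAC, all searched on both strands together with the TATA box, the CCAAT box CCAAT and the TEAD motif GGAATG.
Serpinh1: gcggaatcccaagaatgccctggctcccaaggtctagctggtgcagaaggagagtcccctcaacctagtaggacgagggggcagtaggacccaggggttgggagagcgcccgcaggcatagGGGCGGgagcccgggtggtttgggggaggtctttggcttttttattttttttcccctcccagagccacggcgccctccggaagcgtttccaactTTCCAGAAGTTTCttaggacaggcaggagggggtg
Serpinf1: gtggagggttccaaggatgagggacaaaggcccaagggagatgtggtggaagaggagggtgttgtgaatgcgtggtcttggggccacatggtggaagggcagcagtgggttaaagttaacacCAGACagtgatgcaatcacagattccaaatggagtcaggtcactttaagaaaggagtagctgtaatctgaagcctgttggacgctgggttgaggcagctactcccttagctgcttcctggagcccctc
Serpine2: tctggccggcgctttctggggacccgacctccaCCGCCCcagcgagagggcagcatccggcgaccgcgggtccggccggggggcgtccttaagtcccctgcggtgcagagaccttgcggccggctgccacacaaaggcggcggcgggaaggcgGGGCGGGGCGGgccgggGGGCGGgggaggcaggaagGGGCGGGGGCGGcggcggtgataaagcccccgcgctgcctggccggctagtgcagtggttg
Serpinh1 held 1 heat shock element and 1 GC box. HSP47 is known as a heat shock protein, and the element stood in 0.597% of the windows of all rat genes. Serpine2 held 6 GC boxes, of which some overlap each other, in a window with 76.8% G and C, and the GC box stood in 32.4% of all windows. Serpinf1 held 1 SMAD motif, present in 42.8% of all windows. No motif searched was common to the 3 windows, which says only that these letters are not shared there.

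Some known partners of these genes lay above background and others did not. Plat and Plau, the tissue and urokinase plasminogen activators that Serpine2 inhibits, had mean log2 signals of 9.35 and 7.76, and log2 differences of 0.02 (standard error 0.08) and 0.04 (standard error 0.07). Their substrate Plg, plasminogen, and thrombin (F2) were at background, at 4.29 and 4.09. Lrp1, the receptor that clears serpin and protease complexes, was at 8.86 with a log2 difference of -0.05 (standard error 0.08). Of 19 measured receptors and cofactors 15 lay above the silent tissue level, and 0 were at an unadjusted p under 0.05 (0 after adjustment, limma). The smallest p above that level were those of the clearance receptor Lrp2 with 0.14 (standard error 0.08), the protein C receptor Procr with 0.10 (standard error 0.06), Pnpla2, a lipase that binds the Serpinf1 product, with -0.09 (standard error 0.06), and the urokinase receptor Plaur with -0.04 (standard error 0.06). Of 16 collagens and collagen helpers, which act with HSP47, 15 lay above the level and 0 were at an unadjusted p under 0.05. Ppib, a prolyl isomerase of collagen folding, had -0.18 (standard error 0.08), the prolyl hydroxylase subunits P4ha2 and P4hb -0.14 (standard error 0.09) and 0.11 (standard error 0.08), and Crtap 0.08 (standard error 0.06).

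Serping1 encodes C1 inhibitor, which blocks the complement proteases C1r and C1s, kallikrein and factor XII. Its log2 signal was 9.54, 9.64 and 9.73 in the CTGF arrays and 9.75, 9.64 and 9.56 in the control arrays. The 3 differences were -0.21, 0.00 and 0.17, on both sides of 0, with a mean of -0.01 (standard error 0.09, 95% interval from -0.23 to 0.20). C1r had 9.92, 9.98 and 9.92 in the CTGF arrays and 9.83, 9.77 and 9.83 in the control arrays, and C1s had 9.70, 9.71 and 9.61 with CTGF and 9.52, 9.51 and 9.60 in control ovaries. In both protease genes the CTGF arrays lay above the control arrays, at a log2 difference of 0.13 each (standard error 0.07 for both), and neither passed (adjusted p = 0.994, limma). Arrays of the 2 groups did not overlap in 20.3% of all probe sets. The other targets of the inhibitor were at background, with Klkb1 at 4.60, F12 at 3.98, Masp1 at 5.30 and Masp2 at 4.23.

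Serpini1, neuroserpin, is an inhibitor of tissue plasminogen activator that is best known from neurons. It had log2 signals of 7.43, 7.43 and 7.47 in the CTGF arrays and 7.57, 7.57 and 7.54 in the control arrays. All CTGF arrays lay below the control arrays, with differences of -0.14, -0.14 and -0.07 and a mean of -0.12 (standard error 0.06, 95% interval from -0.27 to 0.04). Un-logged, the signal was 174.1 ± 2.80 with CTGF and 188.7 ± 2.26 in control ovaries (SD, n = 3 each). Here too the SDs leave out differences between culture dates and are not the full spread among pools. The unadjusted p was 0.114 in limma and 0.0377 in the methods' 2-way test, which does not moderate the spread, and neither passed after adjustment. The SD of the 3 differences was 0.040. Limma moderates the standard error of their mean with the spread of other probe sets.

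Serpina9, named centerin in human from germinal centre B cells, was the only clade A gene above the silent tissue level. Its log2 signal was 7.95, 7.99 and 7.94 in the CTGF arrays and 7.82, 7.78 and 7.83 in the control arrays. All CTGF arrays lay above the control arrays, with differences of 0.13, 0.21 and 0.11 and a mean of 0.15 (standard error 0.06, 95% interval from -0.01 to 0.31). The unadjusted p was 0.0577 and the adjusted p = 0.994 in limma. In the methods' 2-way test the unadjusted p was 0.0391, which did not pass after adjustment either. Serpina9 shares 2 further probe sets with its neighbours Serpina11 and Serpina12, which were left out of the 36 because they carry several symbols. The one shared with Serpina11 had 6.68, 6.74 and 6.64 in the CTGF arrays and 6.60, 6.54 and 6.64 in the control arrays. The one shared with Serpina12 had 6.66, 6.75 and 6.68 in the CTGF arrays and 6.63, 6.54 and 6.61 in the control arrays. Both lay above the silent tissue level, with log2 differences of 0.09 and 0.10 (standard error 0.07 each).

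**Figure D4:**
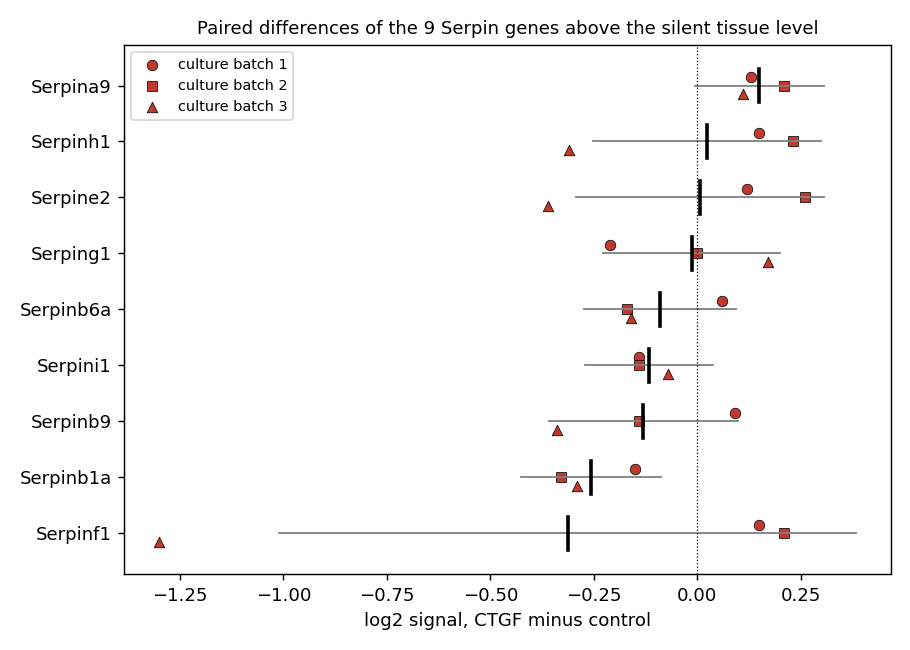
Log2 difference between CTGF and control arrays (horizontal axis) for the 9 serpin genes above the silent tissue level (vertical axis), as circles for batch 1, squares for batch 2 and triangles for batch 3, with the mean (black bar) and the 95% interval of limma (grey line). The interval of Serpinb1a, from -0.43 to -0.09, is the only one that leaves out 0, and the triangle of Serpinf1 lies at -1.30.

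Serpinb1a, Serpini1 and Serpina9 were the 3 of the 9 genes with 1 direction in all 3 batches, which here is the same as arrays of the 2 groups that do not overlap. Over all 36 serpin genes 11 (30.6%) had 1 direction, against 20.3% of all probe sets, and the other 8 lay below the silent tissue level. Among these, Serpinb3, a clade B serpin of squamous epithelium, had 4.04 in each CTGF array and 3.89, 3.90 and 3.90 in the control arrays, a log2 difference of 0.14 (standard error 0.06). Serpina16 had a log2 difference of 0.15 (standard error 0.08) and Serpinb9d one of -0.20 (standard error 0.10). These signals were below the silent tissue median. The log2 differences of the 27 genes at background lay between -0.21 and 0.15, and their smallest unadjusted p in limma was 0.0593.

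The remaining proteases and inhibitors gave no call either. Of 35 measured proteases 14 lay above the silent tissue level and 0 passed after adjustment in limma. At an unadjusted p under 0.05 were 4, Cma1, Tpsab1, Klk1 and Gzmk, all on the lower side and all at background. Of all probe sets 3.35% were at this p, and 1.89% on the lower side. Above it the smallest p were those of C1r, C1s, Gzmb and tissue factor (F3), the last with a log2 difference of -0.20 (standard error 0.12). Of 23 inhibitors of other families 10 lay above the level, 0 passed after adjustment, and Spink6 on the higher and Wfdc2 on the lower side were at an unadjusted p under 0.05, both at background, against 1.45% of all probe sets on the higher and 1.89% on the lower side. Reck, a membrane inhibitor of metalloproteases, had 0.11 (standard error 0.07), Wfdc1 0.11 (standard error 0.07), cystatin C (Cst3) -0.11 (standard error 0.08) and the protease trap A2m 0.12 (standard error 0.10).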

How the data were processed

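Transcripts of 3 CTGF and 3 control ovary pools were measured on Rat Gene ST arrays. As the methods and the submitters' processing notes state, the authors made log2 signals with RMA in Partek, adjusting for GC content. Culture batches differ no longer in the deposited log2 values. Pools were paired by their labelled organ culture date batch, for which the methods block. Log2 differences were tested with lmFit and eBayes of limma 3.58.1 under R 4.3.3 (batch as a block, prior degrees of freedom 4.22 and 2 residual ones), without a filter. The precision is limited by 6 arrays.

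Names come from the platform annotation, with 15097 probe sets of 1 symbol, 323 of several and 11922 of none. Serpin genes and all lists were chosen with earlier results of these data known. Arrays are described singly for the 12 serpin genes with the highest signal, and partner genes by the smallest p above background. The alternatives were no batch term, quantile normalization, centred medians, the methods' 2-way test, a signal filter, robust and trend settings of eBayes, each batch left out and other levels of background. As each serpin gene had 1 probe set, averaging probe sets changed nothing. The arrays give no depth, and coordinates are of GRCr8.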

Additional observations from a re-analysis of the deposited data

How the results depend on the processing

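At an unadjusted p under 0.05, limma with no replicate block gave 8 serpin genes and with it 1. The 8 were Serpinb1a, Serpina9, Serpini1, Serpina1, Serpinb9d, Serpinb5, Serpinb3 and Serpina16. That fit counts residual degrees of freedom which the removal of batch differences had used up. Without the block 22.2% of serpin genes and 16.1% of all probe sets were at this p. The count was 3 with array medians centred (8.33%, against 3.45% of all probe sets), 2 with trend and robust options (5.56% against 3.22%) and 0 to 3 with a batch left out (0% to 8.33%, against 2.36% to 4.55%). The methods' 2-way test gave 5 (13.9%, against 4.2% of all probe sets), Serpinb1a, Serpina9, Serpini1, Serpinb5 and Serpinb3, the last pair at background. Serpinb1a was among these in each setting except without batch 2 or batch 3. At the study's criteria the count of serpin genes was 0, and with a batch left out 0 to 1. After adjustment 0 serpin genes passed in every setting. The median log2 difference was -0.09 over the 9 genes above background, beside 0 for all probe sets above it. For all 36 genes the median was -0.007, or 0.007 with array medians centred and -0.0275 to -0.005 with a batch left out. With a batch left out the log2 difference was -0.105 to 0.085 for Serping1, -0.08 to 0.19 for Serpinh1, -0.12 to 0.19 for Serpine2 and -0.58 to 0.18 for Serpinf1. The number of genes above background was 9 in each setting, and 13 against the median of the silent tissue genes. In each group 3 pools limit what can be detected.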
